A study of Homo sapiens with 9 samples.

Results

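The zinc finger genes described here are the human genes named ZNF and a number that gave a clear array signal in U937 cells. They were chosen by measured values: for each such gene in the platform annotation the probe set with the highest mean signal was taken, and the gene was kept where that mean reached 100 over the 9 arrays. A probe set is a group of short probes that reads 1 transcript region. Each array had first been scaled to a trimmed mean of 100. The rule kept 98 of 425 measured ZNF genes, out of 19775 genes in all. Across all genes, 6912 reached the same mean, and these are called the expressed genes below. Because the rule used the signal on all 9 arrays, the levels of the members are given as a description. Just inside the threshold lay ZNF202, with a mean signal of 100.29, and ZNF142, with 101.43, and just outside it lay ZNF618, with 98.59, and ZNF343, with 93.2.

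The study asked how the transcripts of U937 cells, an established human lymphoma line of monocytic character, move after a short heat exposure. Control cells were kept at 37 °C without heat. The other cells were heated for 15 min at 42 or 44 °C, returned to 37 °C, and collected after 0, 1, 3 or 6 h of recovery. Each of the 9 conditions was measured on 1 array, so no value has a replicate error, no test was possible and every difference below is a difference between 2 arrays. The same control array served all 8 comparisons with heated cells, and an unusual value on it enters all of them. The labels give the control no time point, so that hours in culture and hours of recovery cannot be told apart in comparisons with it. In bulk RNA, a change in every cell and a change in some of the cells cannot be told apart either.

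The ZNF genes make up the greater part of the C2H2 zinc finger family, in which each finger folds around a zinc ion held by a pair of cysteines and a pair of histidines and reads a few bases of DNA. Many carry a KRAB domain, which binds TRIM28 (KAP1) and through it brings the histone methyltransferase SETDB1, HP1 proteins and deacetylases to chromatin. Most KRAB zinc finger genes arose by tandem duplication and lie in clusters, many of them on chromosome 19. Members without KRAB act in other ways, among them activators of promoters, RNA processing factors and a ubiquitin ligase of the ribosome.

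Promoters are shown first for the 3 members on which most of the description turns: ZNF436, which gave the highest fold of all members, ZNF587, which gave the lowest, and ZNF121, which fell at 3 h and holds a pair of the motifs searched. The letters are the 250 bases before the transcription start listed by RefSeq on GRCh38.p14, read 5′ to 3′ on the strand of the gene, and capitals mark a motif match. ZNF436 has 2 listed starts on the minus strand, at chr1:23369837-23370086 (upstream) and chr1:23368336-23368585 (downstream). ZNF587 lies at chr19:57849609-57849858 on the plus strand and ZNF121 at chr19:9584505-9584754 on the minus strand.
ZNF436 upstream start: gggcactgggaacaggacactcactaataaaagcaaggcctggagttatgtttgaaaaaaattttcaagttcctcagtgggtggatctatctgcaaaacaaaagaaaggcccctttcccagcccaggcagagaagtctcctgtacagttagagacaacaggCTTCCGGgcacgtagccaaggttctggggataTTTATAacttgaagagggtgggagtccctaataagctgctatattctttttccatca
ZNF436 downstream start: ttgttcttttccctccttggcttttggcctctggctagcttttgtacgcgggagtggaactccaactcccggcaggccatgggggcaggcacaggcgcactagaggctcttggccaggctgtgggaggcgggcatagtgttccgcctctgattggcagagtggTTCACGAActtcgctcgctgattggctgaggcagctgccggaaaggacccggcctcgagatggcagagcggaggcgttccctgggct
ZNF587: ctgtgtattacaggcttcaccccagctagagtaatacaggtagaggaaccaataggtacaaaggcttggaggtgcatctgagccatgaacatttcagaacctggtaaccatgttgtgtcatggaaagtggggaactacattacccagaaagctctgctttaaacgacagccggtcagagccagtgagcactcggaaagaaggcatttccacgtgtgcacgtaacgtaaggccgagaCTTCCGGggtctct
ZNF121: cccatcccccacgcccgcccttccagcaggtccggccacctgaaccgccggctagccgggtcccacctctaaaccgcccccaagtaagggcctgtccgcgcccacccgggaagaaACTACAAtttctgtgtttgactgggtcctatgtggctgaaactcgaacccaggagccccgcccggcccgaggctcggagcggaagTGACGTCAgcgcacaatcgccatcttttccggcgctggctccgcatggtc
In the first window the capitals mark an ETS core (CCGGAAG, read on the other strand) and a TATA box (TATAAA, also on the other strand). In the second they mark 1 tail-to-tail pair of heat shock units, TTCNNGAA. In ZNF587 they mark an ETS core, and in ZNF121 a part of the site of the activator ZNF143 (ACTACAA) and a cAMP response element (TGACGTCA).

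The same letters were counted in all promoters, on both strands and over every listed start. A promoter entry was matched for 87 of the 98 members, for 5860 expressed genes and for 27305 genes in all. The tail-to-tail heat shock pair TTCNNGAA was found in 5 members (5.75%), against 7.37% of expressed genes and 8.12% of all genes. Those members were ZNF185, ZNF227, ZNF384, ZNF436 and ZNF83. The head-to-head pair GAANNTTC was found in 6 members (6.90%), against 5.56% and 7.05%. Both shares lay near those of other genes, and a single pair is only a part of the repeat to which heat shock factor binds. The ETS core CCGGAAG was found in 27 members (31.0%), against 22.5% of expressed genes and 10.2% of all genes. TGACGTCA was found in 7 members (8.05%), against 3.79% and 2.03%, and ACTACAA in 8 members (9.20%), against 4.64% and 3.06%. The TATA box letters TATAAA were found in 6 members (6.90%), against 7.65% and 13.1%. These are exact matches of short runs of letters, and no binding was measured. A site spelled otherwise was not counted, so a window without capitals may still hold one.

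Before the members, the arrays themselves were checked. The 2% trimmed mean of the deposited signals ran from 101 to 211, with 101 and 109 on the 42 °C arrays at 3 and 6 h and 172 to 211 on the 44 °C arrays. Of 16 listed monocytic and myeloid markers 14 were measured and 8 had a mean of 100 or more, with a summed signal of 11475 to 17927 on each array, while CD14, MPO and FCGR1A were near 0. The markers of T cells (0 of 5 measured, summed 12.6 to 51.6), B cells (0 of 4, 66.1 to 146) and erythroid cells (0 of 2, 9.36 to 36.0) did not reach a mean of 100, and of 6 markers of epithelium and fibroblasts only COL1A1 did (summed 12.7 to 294). HSPA6, a heat shock gene, gave 138 on the control array. It stood at 34.4 times the control on the 42 °C array at 0 h and at 28.9 times on the 44 °C array at 1 h. On the array labelled 44 °C, 0 h it stood at 0.950 times the control. DNAJB1 and BAG3, checked with it, stood at 1.36 and 0.886 times the control there, and at 8.28 and 9.05 times at 42 °C, 0 h. That array therefore showed no rise of HSPA6, and each value at 0 h after 44 °C below carries this limit.

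Member signals ran from 30.4 to 3061, and none of them lay at the floor of 12.5 to which low values were raised. The median of the members' mean signals was 197, against 357 for the expressed genes. Because dim probe sets vary more, 4221 other expressed genes within the signal range of the middle 80% of members (108 to 532) served as a further reference. The brightest member probe sets were those of ZNF207 (BuGZ, a spindle protein), with a mean of 2362, ZNF706, with 2084, ZNF146, with 1412, ZNF664, with 1098, and ZNF275, with 836. ZNF207 gave 2306 on the control array, 2752, 1927, 1991 and 2235 at 0, 1, 3 and 6 h after 42 °C, and 3061, 2330, 2349 and 2309 after 44 °C. None of its arrays differed from the control by 2-fold. Of the 98 members, 66 had a signal of 100 or more on all 9 arrays. The 5 members under 100 on the control array were ZNF273, ZNF419, ZNF436, ZNF654 and ZNF692.

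As a set, the ZNF members sat below the control soon after 42 °C and at 3 h of recovery, and returned to it or slightly above by 6 h. After 42 °C the median log2 fold of the 98 members against the control was -0.26 at 0 h, -0.13 at 1 h, -0.33 at 3 h and 0.05 at 6 h. Over the expressed genes the medians on the same arrays were 0.02, 0.01, 0.00 and -0.04, and over the genes of like signal they were -0.05, -0.03, -0.08 and -0.11. After 44 °C the members' medians were -0.07 on the array labelled 0 h, 0.00 at 1 h, -0.24 at 3 h and 0.10 at 6 h, while the expressed genes stayed between -0.03 and 0.02. The median over all members was thus lowest at 3 h at both temperatures. Among members with a mean of 200 or more this did not hold after 42 °C, where the medians were -0.22 at 0 h and -0.16 at 3 h. The value at 42 °C, 0 h was -0.14 with quantile normalisation and -0.16 with the median over probe sets. The shifts were small: the median at 42 °C, 3 h, the lowest of the 8, is a decrease of less than 1.5-fold. The middle 50% of members spanned -0.66 to 0.02 on that array.

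**Figure D1:**
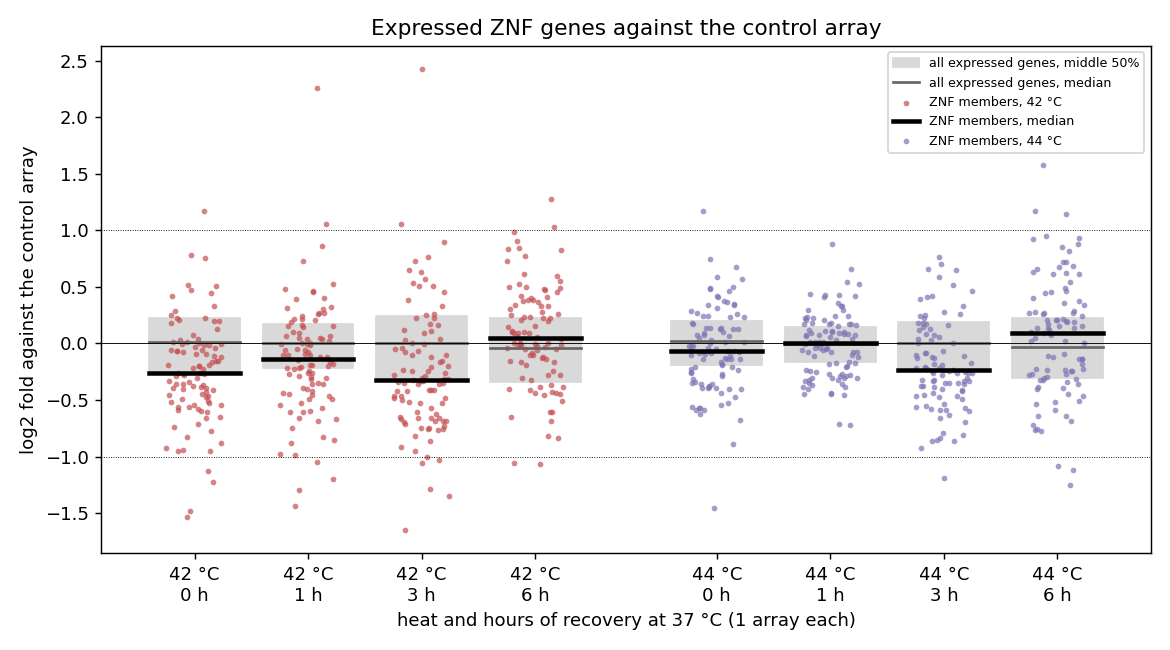
Log2 fold of each of the 98 ZNF members (points) against the control array on the 8 heated arrays, with the members' median (black line) and the median and middle 50% of all 6912 expressed genes (grey). Dotted lines mark 2-fold. The members' median lies at -0.33 at 42 °C, 3 h and at -0.24 at 44 °C, 3 h, and at 0.05 and 0.10 at 6 h.

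How many members moved depended on the size of change asked for. At 2-fold, 4 members were lower at 42 °C, 0 h (background 2.99% of expressed genes) and 1 was higher (0.709%). At 1 h, 4 were lower (1.82%) and 2 higher (1.42%). At 3 h, 6 were lower (3.54%) and 2 higher (1.94%), and at 6 h, 2 were lower (2.97%) and 2 higher (2.29%). Each of these counts is small, and those at 0 and 6 h are near the background. Among genes of like signal 3.77% were lower by 2-fold at 42 °C, 0 h, 2.27% at 1 h and 4.86% at 3 h. The members' shares on these arrays were 4.08%, 4.08% and 6.12%. After 44 °C, 1 member was lower (0.94%) and 1 higher (0.203%) on the array labelled 0 h, and 0 were lower (0.217%) or higher (0.463%) at 1 h. At 3 h, 1 was lower (1.24%) and 1 higher (1.36%), and at 6 h, 3 were lower (3.2%) and 3 higher (3.24%). Most members therefore stayed within 2-fold of the control: 78 of 98 (79.6%) did so on all 8 heated arrays, as did 86.3% of the expressed genes. ZNF436 is among the members counted as higher on every 42 °C array and at 44 °C, 3 and 6 h. ZNF692 is the 1 counted as higher on the array labelled 44 °C, 0 h. Both were under 100 on the control array and under a mean of 100 without their highest array. Their rises were thus in part built into their choice, here and at 1.5-fold.

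At 1.5-fold the dip was visible in counts. At 42 °C, 0 h, 18 members were lower (background 10.7%) and 3 higher (2.85%), and at 1 h, 16 were lower (6.8%) and 4 higher (3.23%). At 3 h, 28 members, or 28.6%, were lower (12%) and 7 higher (5.63%). At 6 h the balance had turned, with 8 lower (12.4%) and 11 higher (7.8%). After 44 °C, 6 were lower (4.96%) and 4 higher (1.92%) on the array labelled 0 h, 2 lower (2.03%) and 2 higher (1.97%) at 1 h, 14 lower (6.18%) and 5 higher (3.89%) at 3 h, and 10 lower (11.5%) and 18 higher (8.54%) at 6 h. Among genes of like signal 15.6% were lower by 1.5-fold at 42 °C, 3 h and 8.10% at 44 °C, 3 h. The members counted as higher at 6 h include, besides ZNF436, ZNF273 at both temperatures and ZNF654 at 44 °C. Both were under 100 on the control array, at 99.4 and 92.5, so their rises too were in part built into their choice. ZNF654 had a mean of 96.3 without the 44 °C, 6 h array.

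**Figure D2:**
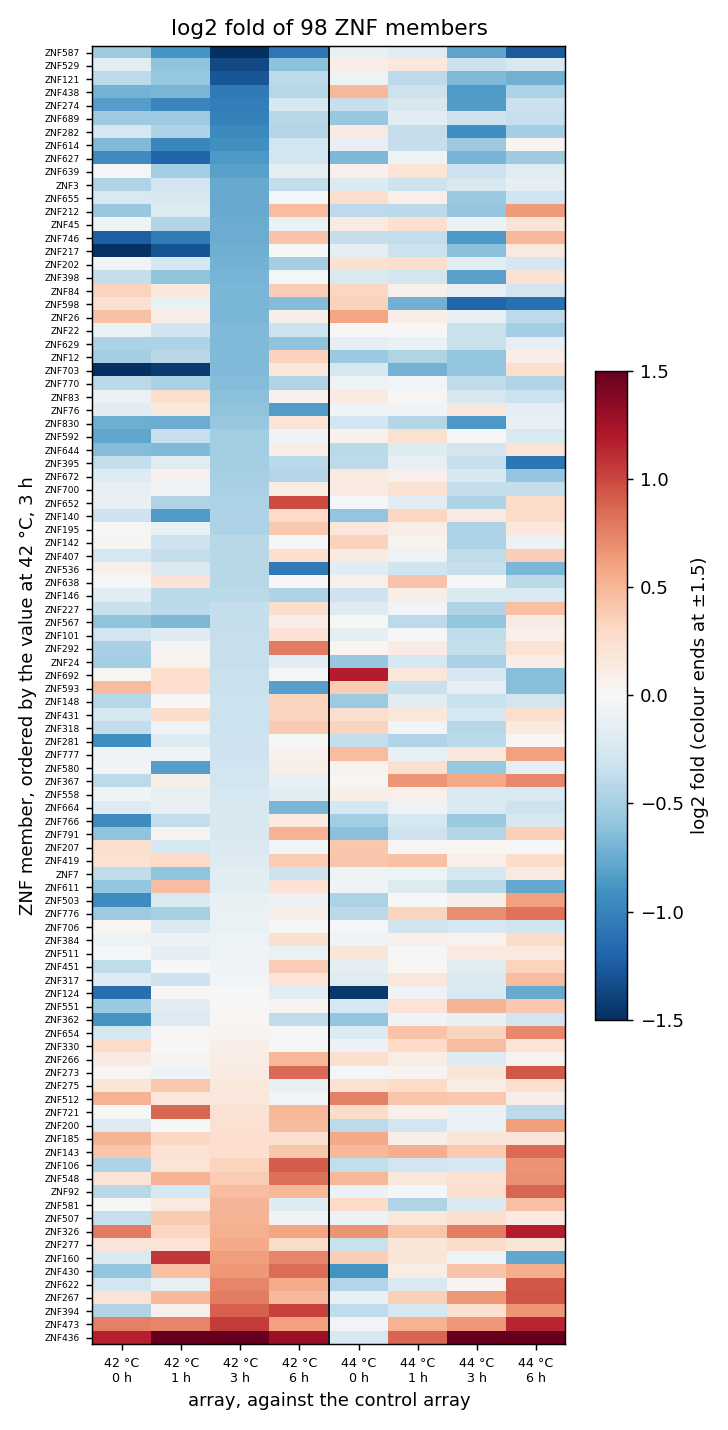
Log2 fold of all 98 ZNF members (rows, ordered by the value at 42 °C, 3 h) against the control array on each heated array (columns). Blue is lower and red higher, and colours end at 1.5. The rows run from ZNF587 (-1.65 at 42 °C, 3 h) to ZNF436 (2.43), and 72 of 98 lie below 0 in that column.

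ZNF217, ZNF703 and ZNF746 shared an early fall after 42 °C. ZNF217, a repressor that works with CtBP and is amplified in breast cancer, gave 271 on the control array, 97.1, 110, 163 and 272 at 0, 1, 3 and 6 h after 42 °C, and 246, 217, 175 and 301 after 44 °C. It was lowest on the arrays at 42 °C, 0 and 1 h, 2.79-fold and 2.45-fold below the control, and was back at the control value by 6 h. After 44 °C its lowest value came at 3 h and stayed within 2-fold of the control. ZNF703, a NET family repressor linked to luminal breast cancer, gave 168 on the control array, 57.8, 61.8, 106 and 187 after 42 °C, and 141, 102, 112 and 202 after 44 °C. Its falls were 2.90-fold at 42 °C, 0 h and 2.71-fold at 1 h. ZNF746 (PARIS), a substrate of the ubiquitin ligase parkin that represses the PGC-1α gene, gave 252 on the control array, 108, 122, 151 and 338 after 42 °C, and 197, 195, 139 and 355 after 44 °C. It was 2.33-fold lower at 42 °C, 0 h and 2.07-fold lower at 1 h, and at 6 h its signal was above the control at both temperatures by less than 2-fold. The other probe set of ZNF746 was dim, with 20.8 on the control array, 14.7 at 42 °C, 0 h and a value at the floor at 1 h, so its fold at 1 h is only a bound. ZNF217 and ZNF703 had no other probe set above the floor.

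ZNF124 and ZNF627 were the other members that fell at 0 or 1 h. ZNF124, a KRAB-type zinc finger gene, gave 287 on the control array, 131, 287, 286 and 256 after 42 °C, and 105, 277, 245 and 170 after 44 °C. It was low on both 0 h arrays, 2.19-fold at 42 °C and 2.73-fold on the array labelled 44 °C, 0 h, and was at the control level at 1 h. Its other probe set did not show this, with log2 folds of -0.15 and 0.37 on those 2 arrays. ZNF627 gave 265 on the control array, 138, 116, 146 and 219 after 42 °C, and 166, 251, 164 and 183 after 44 °C. Its fall of 2.29-fold at 42 °C, 1 h was the one that passed 2-fold.

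Another group of members reached its lowest value at 42 °C, 3 h. ZNF587 gave 317 on the control array, 219, 172, 101 and 151 at 0, 1, 3 and 6 h after 42 °C, and 293, 279, 183 and 133 after 44 °C. Its signal was lower on each heated array than on the control, by 3.14-fold at 42 °C, 3 h, by 2.10-fold at 42 °C, 6 h and by 2.38-fold at 44 °C, 6 h. The other ZNF587 probe set gave 78.3 on the control array and 12.6, 28.2 and 19.1 on those arrays, log2 folds of -2.64, -1.47 and -2.04. The value of 12.6 lies next to the floor. ZNF121 gave 748 on the control array, 569, 505, 307 and 571 after 42 °C, and 710, 571, 473 and 453 after 44 °C. It fell 2.44-fold at 42 °C, 3 h and had risen again by 6 h, whereas after 44 °C its 6 h value was its lowest of that series. ZNF529 gave 178 on the control array, 159, 117, 69.8 and 117 after 42 °C, and 191, 198, 142 and 151 after 44 °C. It fell 2.55-fold at 42 °C, 3 h. The other probe set of ZNF529 was at the floor on the control array and at 42 °C, 3 h and gave no fold there.

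3 further members crossed 2-fold at 42 °C, 3 h by a narrow margin. ZNF438 fell 2.08-fold, from 231 to 111, and its other probe set fell too, by log2 -1.53. ZNF274, which brings SETDB1 to the 3′ ends of zinc finger genes, fell 2.04-fold, from 430 to 211, and its other probe set stood at 0.02. ZNF689, named after its values were seen, fell 2.01-fold, from 192 to 95.4, with -0.87 for its other probe set. With quantile normalisation of the arrays these 3 no longer passed 2-fold, at log2 folds of -0.97, -0.97 and -0.89.

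**Figure D3:**
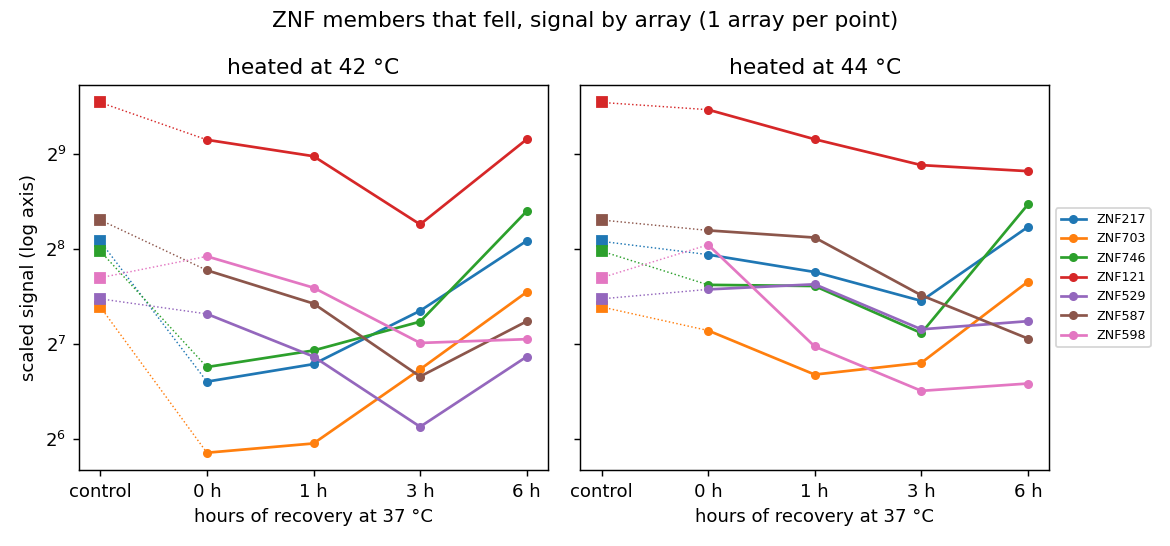
Scaled signal (log axis) of 7 members that fell by 2-fold or more against the control on at least 1 array, for the control array (square) and at 0, 1, 3 and 6 h of recovery after 42 °C (left) and 44 °C (right). Each point is 1 array. ZNF217, ZNF703 and ZNF746 are lowest at 0 h after 42 °C, ZNF121, ZNF529 and ZNF587 at 3 h, and ZNF598 stays low at 3 and 6 h after 44 °C.

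Falls that passed 2-fold late were those of ZNF536, ZNF598 and ZNF395. ZNF536, a repressor known from neural cells, gave 239 on the control array and was 2.09-fold lower, at 115, on the 42 °C array at 6 h. At 44 °C, 6 h it gave 149. Its other 2 probe sets gave log2 -0.69 and 0.28 at 42 °C, 6 h, and with the median over probe sets the fall no longer passed 2-fold, at -0.69. ZNF598, a ubiquitin ligase that marks collided ribosomes, gave 208 on the control array, 243, 193, 129 and 132 after 42 °C, and 264, 126, 90.8 and 95.8 after 44 °C. Its brightest probe set fell 2.29-fold at 44 °C, 3 h (a call named after its values were seen) and 2.17-fold at 44 °C, 6 h. The other ZNF598 probe set was at the floor on the control array and at 44 °C, 6 h, so it gave no measured fold at 6 h. It gave 25.6 at 44 °C, 3 h, higher than the control by a log2 of at least 1.03, opposite to the fall. With the median over probe sets the log2 folds were -0.08 at 44 °C, 3 h and -0.56 at 44 °C, 6 h. ZNF395 gave 467 on the control array and was 2.12-fold lower, at 220, at 44 °C, 6 h, and its other probe set fell there too (log2 -1.63).

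The highest fold of any member belonged to ZNF436, a KRAB-type gene whose product was described as a repressor of AP-1 and serum response element reporters. ZNF436 gave 35.8 on the control array, 80.6, 171, 192 and 87.0 at 0, 1, 3 and 6 h after 42 °C, and 30.4, 65.6, 156 and 107 after 44 °C. It rose 2.25-fold, 4.79-fold, 5.38-fold and 2.43-fold after 42 °C, and 4.37-fold and 2.99-fold at 3 and 6 h after 44 °C. After 42 °C it was thus above the control at every time, and after 44 °C from 1 h on. Its other probe set followed the same course, at log2 1.32, 1.92, 2.11 and 1.57 after 42 °C and -0.27, 0.57, 2.06 and 1.94 after 44 °C. ZNF436 reached the mean of 100 only through its heated arrays, since its control signal was under 100, so a rise was in part built into its choice. Its mean without its highest array was 91.8.

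5 other members rose by 2-fold on at least 1 array. ZNF473 (ZFP100), a partner of the U7 particle in histone pre-mRNA processing, gave 136 on the control array, 229, 225, 282 and 208 after 42 °C, and 132, 196, 214 and 301 after 44 °C. It rose 2.08-fold at 42 °C, 3 h and 2.21-fold at 44 °C, 6 h, and its other probe set gave log2 0.76 and 0.89 there. ZNF326, a part of the DBIRD complex that links elongation to splicing, gave 307 on the control array, 527, 384, 445 and 463 after 42 °C, and 490, 408, 522 and 692 after 44 °C. It lay above the control on all 8 heated arrays and passed 2-fold, at 2.25-fold, on the 44 °C array at 6 h. ZNF394, a KRAB-type gene, gave 192 on the control array, 141, 201, 357 and 391 after 42 °C, and 147, 161, 227 and 304 after 44 °C. It rose 2.04-fold at 42 °C, 6 h, while its other probe set gave log2 0.22. Signals of ZNF394 were below the control at 0 h and highest at 6 h at both temperatures.

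ZNF692 and ZNF160 each rose on 1 array. ZNF692 (AREBP) gave 95.9 on the control array and 216, or 2.25-fold more, on the array labelled 44 °C, 0 h, against 61.6 to 116 on the other 7 heated arrays. Its mean was 105 with that array and 91.1 over the other 8, so ZNF692 reached the mean of 100 through the array on which it is called, and it is the 1 member counted as higher there. In all, 7 members fell under a mean of 100 without their highest array. ZNF160 gave 272 on the control array, 234, 567, 422 and 451 after 42 °C, and 351, 308, 259 and 159 after 44 °C, and rose 2.08-fold at 42 °C, 1 h. Its probe set is one whose name ends in _x_at, the platform's mark for probes that may bind several transcripts. Of the members, 8 were read by such a probe set, 22 by one ending in _s_at and 67 by one ending in _at. ZNF611 and ZNF721, read by the same kind of probe set, were also highest at 42 °C, 1 h (223 and 591) and lowest of the 44 °C series at 6 h (94.8 and 247). These 3 readings may share transcripts and are not counted as independent.

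**Figure D4:**
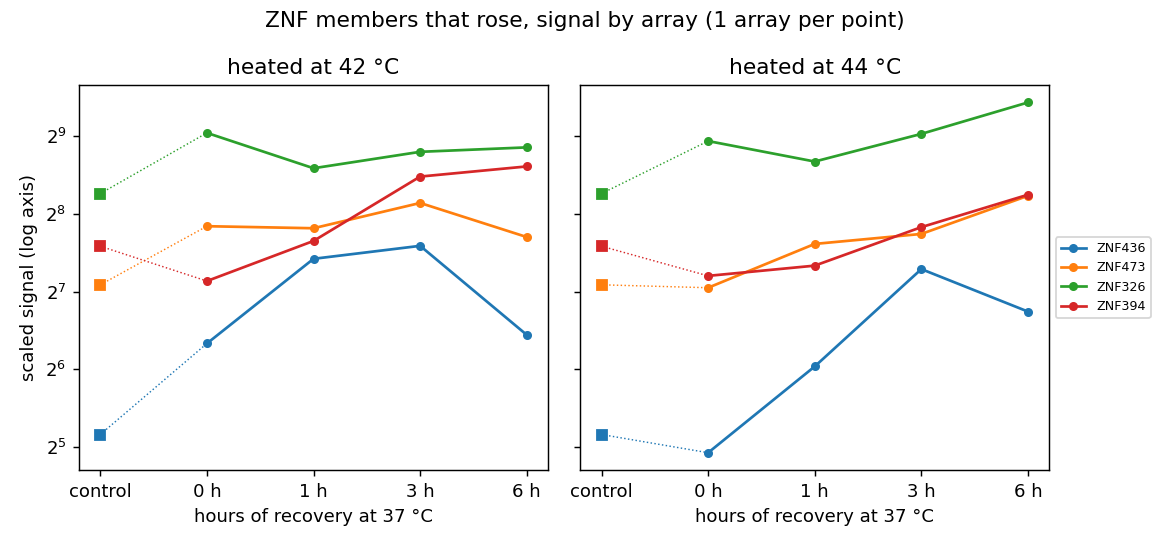
Scaled signal (log axis) of ZNF436, ZNF473, ZNF326 and ZNF394 on the control array (square) and at 0, 1, 3 and 6 h after 42 °C (left) and 44 °C (right), 1 array per point. ZNF436 climbs from 35.8 to 192 at 3 h after 42 °C and to 156 at 3 h after 44 °C, and is lower again at 6 h.

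Recovery was followed in the members that had fallen by 3 h. After 42 °C, 11 members (11.2%) were at least 2-fold below the control at 0, 1 or 3 h, against 5.82% of the expressed genes. By 6 h 9 of them were back, with a log2 fold above -0.5: ZNF121, ZNF124, ZNF217, ZNF274, ZNF438, ZNF627, ZNF689, ZNF703 and ZNF746. ZNF529 lay in between, at -0.61, and ZNF587 was still low, at -1.07. Of 402 expressed genes chosen the same way, 206 (51.2%) were back, 112 in between and 84 still low. Choosing genes by a low value favours values nearer the control elsewhere, for the members and the other genes alike. After 44 °C, 2 members (2.04%) had fallen, ZNF124 on the array labelled 0 h and ZNF598 at 3 h, against 152 expressed genes (2.20%). For ZNF124 and ZNF598 alike the other probe set did not show the fall. By 6 h ZNF124 was in between, at -0.75, and ZNF598 was still low, at -1.12. Of the 152, 74 (48.7%) were back, 34 in between and 44 still low.

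The time course was then read between successive arrays, which leaves out the control. From 3 to 6 h after 42 °C the median log2 fold of the members was 0.38 (middle 50%, 0.04 to 0.65), against -0.05 for the expressed genes and -0.01 for genes of like signal. At 1.5-fold, 32 members (32.7%) were higher at 6 h than at 3 h (background 7.67%) and 3 lower (5.47%). At 2-fold, 5 were higher (1.56%) and 1 lower (0.666%). From 3 to 6 h after 44 °C the median was 0.21 (-0.08 to 0.53), against -0.03 for the expressed genes, and 20 members (20.4%) were higher by 1.5-fold (6.41%) and 2 lower (4.96%). There, 3 were higher by 2-fold (1.22%) and 0 lower (0.593%). Among genes of like signal 9.55% and 7.96% were higher by 1.5-fold in these steps. So the 3 to 6 h rise, though mostly under 2-fold, took in more members than the background share at both temperatures.

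The members that rose by 2-fold from 3 to 6 h after 42 °C were ZNF652 (2.76-fold, from 82.2 to 227), ZNF212 (2.33-fold), ZNF746 (2.24-fold), ZNF292 (2.18-fold, from 340 to 742) and ZNF84 (2.09-fold). ZNF436 fell by 2.21-fold in this step, from its highest array, without which it would not have been a member. After 44 °C they were ZNF746 (2.56-fold), ZNF212 (2.31-fold) and ZNF398 (2.03-fold). ZNF212 gave 135 on the control array, 91.2, 117, 79.7 and 186 after 42 °C, and 103, 102, 90.6 and 209 after 44 °C. ZNF746 and ZNF212 therefore rose by 2-fold in both 3 to 6 h steps by their brightest probe sets. With the median over probe sets ZNF212 stayed past 2-fold in both, while ZNF746 after 44 °C (log2 0.71), ZNF292 (0.92) and ZNF84 (0.71) did not. With quantile normalisation ZNF398 came to 0.99.

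These 2 steps share no array. Of the 98 members 55 (56.1%) were higher at 6 h than at 3 h at both temperatures and 13 (13.3%) were lower at both. Among the expressed genes 26.6% were higher and 37.7% lower at both, and among genes of like signal 29.1% and 37.1%. Across the 98 members the steps correlated with Pearson r = 0.46 and Spearman rho = 0.44, which is a description across genes read on the same 4 arrays. Over all 6912 expressed genes r was 0.45, close to the value of the members.

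**Figure D5:**
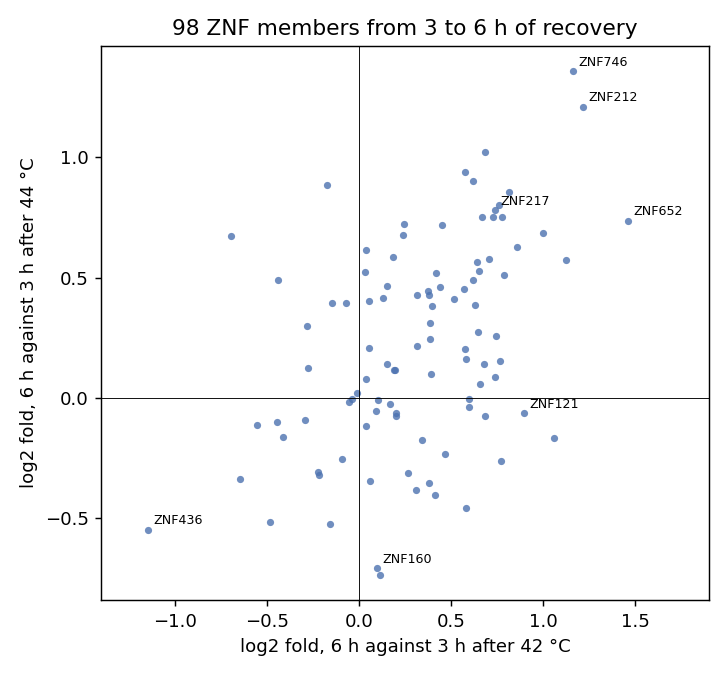
Log2 fold from 3 to 6 h of recovery after 42 °C (x axis) and after 44 °C (y axis) for each of the 98 ZNF members, 1 point per gene. The axes share no array. 55 members lie above 0 on both axes and 13 below 0 on both, with ZNF746 and ZNF212 highest on the y axis, ZNF652 highest on the x axis and ZNF436 lowest on it.

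From 1 to 3 h the members' median moved the other way. After 42 °C the median was -0.10, with 12 members lower by 1.5-fold (3.7%) and 4 higher (2.08%), and 0 lower (0.506%) or higher (0.347%) by 2-fold. Genes of like signal had a median of -0.05 in that step, and 5.16% of them were lower by 1.5-fold. Below 0 lay 58.2% of the members and 57.1% of those genes. The step's median was -0.15 in the 49 dimmer members and -0.01 in the 49 brighter ones. After 44 °C the median was -0.19, with 5 lower by 1.5-fold (2.82%) and 1 higher (1.87%). At 2-fold 0 were lower (0.304%) and 1 was higher (0.535%), ZNF436 at 2.38-fold. At both temperatures 50 of 98 members (51.0%) were lower at 3 h than at 1 h, against 32.1% of the expressed genes and 39.7% of genes of like signal. The 1 to 3 h and 3 to 6 h steps of a temperature share its 3 h array, so a low reading of that array would enter both.

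The time of the lowest signal shows the same dip. Among the 4 arrays of a temperature, 36 of 98 members (36.7%) were lowest at 3 h after 42 °C, and 36 after 44 °C, against 18.1% and 16.2% of expressed genes. The highest signal came at 6 h for 49 members (50%) after 42 °C and 43 (43.9%) after 44 °C, against 27.5% and 26.9%. Without the 0 h arrays, a choice made after seeing the data, 49 members (50%) and 44 (44.9%) were lowest at 3 h, against 25.3% and 22.2%. Among genes of like signal 21.4% after 42 °C and 18.7% after 44 °C were lowest at 3 h, and 30.3% and 25.9% were highest at 6 h. Without the 0 h arrays 30.5% and 25.9% of them were lowest at 3 h. The deposited trimmed means of the 3 and 6 h arrays were 101 and 109 after 42 °C and 205 and 191 after 44 °C. The part of array brightness in the dip was not tested.

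Between 0 and 1 h the members' median changed little, though some members rose. At 1.5-fold, 13 members (13.3%) were higher after 42 °C (background 6.42%, genes of like signal 7.65%) and 1 lower (1.88%). From the array labelled 44 °C, 0 h, 8 were higher (6.38%) and 5 lower (3.59%) by the same rule. After 42 °C the median step was 0.02, with 5 members higher by 2-fold (1.63%) and 0 lower (0.0868%). The 5 were ZNF160 (2.42-fold), ZNF124 (2.19-fold), ZNF436 (2.13-fold), ZNF430 (2.06-fold) and ZNF611 (2.06-fold), of which ZNF160, ZNF430 and ZNF611 were read by _x_at probe sets. After 44 °C, measured from the array labelled 0 h, 3 were higher (1.56%), namely ZNF124 (2.63-fold), ZNF436 (2.16-fold) and ZNF430 (2.01-fold), and 2 lower (0.362%), namely ZNF598 (2.10-fold) and ZNF692 (2.01-fold). ZNF692 became a member only through the array labelled 44 °C, 0 h, with a mean of 91.1 without it. Its fall from that array, here and at 1.5-fold, was thus in part built into its choice. ZNF124, ZNF430 and ZNF436 passed 2-fold in both 0 to 1 h steps by their brightest probe sets, by narrow margins. With the median over probe sets ZNF124 came to log2 0.65 and 0.73 and ZNF436 to 0.84 and 0.97, and with quantile normalisation ZNF430 came to 0.97 and 0.99. ZNF430 gave 132 and 272 at 42 °C and 107 and 215 at 44 °C.

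Set directly against each other, the 2 temperatures differed in the members' median early and less later. The 44 °C array was above the 42 °C array by a median log2 of 0.18 over the members at 0 h, 0.16 at 1 h, 0.06 at 3 h and 0.01 at 6 h. Genes of like signal gave 0.05, 0.06, 0.07 and 0.03. The middle 50% of members was wider later, at 0.01 to 0.33 at 0 h and -0.24 to 0.26 at 6 h. At 1.5-fold, 2 members were lower (background 1.71%) and 8, or 8.16%, higher (5.82%) at 0 h. At 1 h, 6 were lower (3.07%) and 13, or 13.3%, higher (5.93%), and at 3 h, 5 were lower (4.46%) and 9 higher (6.16%). At 6 h, 9 were lower (3.11%) and 6 higher (4.64%) by that rule. Among genes of like signal 7.77%, 7.51%, 8.36% and 5.76% were higher at 0, 1, 3 and 6 h. Lower were 1.78%, 3.08%, 3.36% and 3.86% of them. At 0 h, 4 members were higher by 2-fold at 44 °C (background 1.33%), ZNF217 (2.53-fold), ZNF703 (2.44-fold), ZNF438 (2.29-fold) and ZNF692 (2.23-fold), and ZNF436 was lower (2.65-fold; 0.608%). These differences rest on the array labelled 44 °C, 0 h. ZNF692 became a member only through that array, with a mean of 91.1 without it. Its place among those higher at 0 h, here and at 1.5-fold, was thus in part built into its choice. At 1 h, ZNF140 (2.27-fold), ZNF627 (2.17-fold) and ZNF580 (2.09-fold) were higher (0.969%) and ZNF436 was lower (2.61-fold; 0.81%). At 3 h, ZNF529 was higher (2.04-fold; 0.839%) and 0 members were lower (0.448%). At 6 h, 0 were higher (0.55%) and ZNF160 was lower (2.84-fold; 0.42%).

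What the members have in common beyond their name was looked at next. A ZNF gene was a direct protein-coding neighbour of 44 of the 98 members on GRCh38.p14, against 3.68% of 20056 protein-coding genes. Of the 87 with a promoter entry 30 were on chromosome 19. From 3 to 6 h after 42 °C the median step was 0.57 for the 44 members with a ZNF neighbour and 0.16 for the 54 without. After 44 °C the same step was 0.26 and 0.18. Of the 6 members that fell by 2-fold at 42 °C, 3 h, 5 had a ZNF neighbour, while the medians of the groups on that array were close, at -0.35 and -0.30. Neighbouring zinc finger genes are similar in sequence, and how far their probes share transcripts was not tested.

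Signal strength moved with the dip at both temperatures. For the dimmer 49 members the median at 42 °C, 3 h was -0.42 and for the brighter 49 it was -0.21, next to -0.27 and -0.22 at 0 h. In the brighter members the 0 and 3 h medians were thus about equal. The 3 to 6 h step after 42 °C was 0.47 and 0.19. At 44 °C, 3 h the medians against the control were -0.31 in the dimmer and -0.18 in the brighter group. The 1 to 3 h steps were -0.15 and -0.01 after 42 °C and -0.23 and -0.14 after 44 °C. The 3 to 6 h step after 44 °C was 0.21 in the dimmer and 0.22 in the brighter group, so that step alone was as large in bright members. In 69 members a second probe set lay above the floor. Its step from 3 to 6 h had the sign of the brightest probe set in 55 of 69 members at each temperature, with medians of 0.35 after 42 °C and 0.21 after 44 °C. At 42 °C, 3 h against the control the sign was shared in 56 of 69, with medians of -0.21 for the second and -0.34 for the brightest probe set. The early shift was weaker in the second probe sets: at 42 °C, 0 h their median was -0.04, against -0.27 for the brightest of the same 69 members, and 44 of 69 shared the sign. On the array labelled 44 °C, 0 h 38 of 69 did.

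The partners of the KRAB domain were counted on the same arrays. Of 37 measured genes of the repressor machinery (TRIM28, SETDB1, HP1 proteins, deacetylase and methyltransferase complexes) 35 were expressed, and 1 (2.86%) passed 2-fold against the control on any array, as did 13.7% of the expressed genes. That was CBX5, which encodes HP1α and fell from 1178 on the control array to 539 at 44 °C, 6 h (log2 -1.13). The list's medians after 42 °C were -0.05, -0.03, -0.06 and -0.24 at 0, 1, 3 and 6 h. After 44 °C they were 0.08 on the array labelled 0 h, and -0.04, -0.09 and -0.21 at 1, 3 and 6 h. TRIM28 gave 1554 on the control array and 1048 to 1717 on the heated arrays, within 2-fold throughout. The medians of this list were lowest at 6 h, on the arrays where the medians of the ZNF members were highest. Those of the expressed genes (-0.04 after 42 °C and -0.03 after 44 °C) were lowest at 6 h too. So were those of genes of like signal (-0.11 and -0.07). A link between this list and the ZNF members was not tested.

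Other C2H2 families, with names in ZBTB, ZSCAN, ZKSCAN or ZFP, were read on the same arrays. Of 78 measured 22 were expressed. Their medians were -0.23, -0.17, -0.28 and 0.15 after 42 °C and -0.19 (array labelled 0 h), 0.01, -0.16 and 0.14 after 44 °C, and their 3 to 6 h steps were 0.37 and 0.28. Like those of the ZNF members, these medians were lower at 3 h than at 1 or 6 h at both temperatures. At 2-fold, ZBTB40 rose from 91.5 on the control array to 223 at 42 °C, 6 h and to 210 at 44 °C, 6 h. ZBTB43 rose from 153 to 352 and 389 on the same arrays. ZBTB5 fell from 143 to 66.0 at 42 °C, 3 h, and stood at 145 at 6 h. ZFP36, which rose from 97.2 to 207 at 42 °C, 1 h, is caught by the name rule but is a CCCH protein of mRNA decay.

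Over the 9 arrays many members moved by 2-fold in all. The range of a member's log2 signal had a median of 1.00, and 50 of 98 members (51.0%) spanned 2-fold or more between their lowest and highest array, against 25% of expressed genes. The narrowest range was that of ZNF511, at 0.33, and the widest that of ZNF436, at 2.66. ZNF511 gave 228 to 285 on all 9 arrays. The members' lower signal moves with this, and its part in the range was not tested.

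The calls against the control were checked under other settings. Of the 33 changes of members past 2-fold, 30 stayed past it with quantile normalisation, 29 with arrays centred on the expressed genes and 20 with the median over a gene's probe sets. Without _x_at and _s_at probe sets 25 stayed and the gene of the other 8 was lost. Of the 31 changes between heated arrays, 25, 29 and 19 stayed past 2-fold in the first 3 settings, and without _x_at and _s_at probe sets 21 stayed and the gene of 10 was lost. In none of these 4 settings did a change turn its sign.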

How the data were processed

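Biotin-labelled cRNA from total RNA of 9 U937 samples was read on U133 Plus 2.0 arrays, per the labels' protocols. The deposited intensity values, 54675 probe sets on a linear scale, were made by the authors with MAS5 (submitters' processing notes); their scaling target is unknown here. Arrays were brought to a common 2% trimmed mean of 100 over the 54613 non-control probe sets, with factors of 0.474 to 0.989, on the assumption that most transcripts keep their level. Signals below 12.5, the median of all, were set to that floor before log2. The platform annotation gave 41097 probe sets a single symbol, and the brightest stood for its gene.

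With 1 array per condition no test was run. A member was called higher or lower at 2-fold in 18 comparisons, and the same counts over 6912 expressed genes gave the background. Named members were the 5 largest falls and 3 largest rises past 2-fold in each comparison with the control whose other probe sets did not oppose them by log2 0.5 or more, the 5 brightest, those next to the threshold, and genes of the other lists past 2-fold. Members named for steps, temperature differences or their range were picked after their values were seen. The members and lists were chosen with earlier results of these data known. Protein features were not analysed here. The members were taken by name alone, and whether each encodes C2H2 fingers was not checked. Promoters and gene order came from RefSeq tables of GRCh38.p14. Python 3.11.15, numpy 2.4.6, pandas 2.3.3 and scipy 1.17.1 were used. The size rule was tried on simulated data whose changes were all well past 2-fold, with the same noise at every signal. That trial does not bear on calls close to 2-fold or on dim probe sets. Other scalings, floors, probe set choices, thresholds and baselines were tried.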

Additional observations from a re-analysis of the deposited data

Results flagged for a closer look

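ZNF160 lay on opposite sides of the control at 6 h after the 2 temperatures. Its log2 fold was 0.73 after 42 °C and -0.78 after 44 °C, so that the 44 °C array was lower than the 42 °C array by a log2 difference of -1.50. With 1 array on each side the difference was not tested. The other ZNF160 probe set was dim, with 12.9 on the control array, next to the floor of 12.5, and 43.7 and 21.8 on these 2 arrays. It gave no fold that could be set beside the opposite signs.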

How the results depend on the processing

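Of 114 medians recomputed under other settings, 104 stayed within the 95% order-statistic interval of the reported median, 9 left it and 1, at 42 °C, 1 h, changed sign, not counting medians near 0. That interval covers the spread over members, which are not replicates, and some medians inside it moved by over 1.5 times. At 42 °C, 0 h the reported -0.26 became -0.14 with quantile normalisation and -0.16 with the median over probe sets, and at 42 °C, 1 h the reported -0.13 became -0.08 with centring and -0.033 with a mean of 200. With the 0 h array as baseline the median at 42 °C, 1 h was 0.0214, that at 3 h -0.0598 and that at 6 h 0.28. With a mean of 200 or more the medians were -0.16 at 42 °C, 3 h, 0.0896 for 44 against 42 °C at 0 h, 0.19 for 6 against 3 h after 42 °C and -0.14 for 3 against 1 h after 44 °C. Quantile normalisation gave 0.11 for 44 against 42 °C at 0 h, -0.0724 for 1 against 0 h after 42 °C and -0.14 for 3 against 1 h after 44 °C. Counts of members lower by 2-fold against the control moved by over 1.5 times in 25 of 62 recounts. With a 1.5-fold rule they were 18, 16, 28 and 8 at 0, 1, 3 and 6 h after 42 °C and 6, 2, 14 and 10 after 44 °C. At 42 °C, 3 h the count was 3 with quantile normalisation, with centring, with the median over probe sets and with a mean of 200. The median over probe sets gave 2 at 42 °C, 0 h, 1 at 42 °C, 6 h and 0 at 44 °C, 0 h. A mean of 200 gave 2 at 42 °C, 1 h, 1 at 42 °C, 6 h and 0 at 44 °C, 3 h. Without _x_at and _s_at probe sets the count was 1 at 42 °C, 6 h, 2 at 44 °C, 3 h and 1 at 44 °C, 6 h. Against the 0 h array it was 0 at 42 °C, 1 h and 2, 4 and 5 at 44 °C, 1, 3 and 6 h. The causes were not tested, beyond fewer members entering with a mean of 200. No paired analysis was possible because each condition has 1 array. Signal over background limits dim members, and with so few arrays no value has a measured precision.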
